A study of Mus musculus with 9 samples.

Results

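Hearts of mice that had undergone pressure overload surgery and received Lingguizhugan decoction were compared with hearts of sham-operated mice, by whole-heart RNA sequencing. The labels call the operation TAC, which usually stands for transverse aortic constriction, and they call the decoction LD. The comparison uses the 3 LD and the 3 sham libraries, 6 of the 9 libraries in the series, and 10964 of the 21989 gene symbols listed, namely every gene whose FPKM reached 1 in 3 or more of the 6. FPKM is a count of sequenced fragments scaled by the length of the transcript and by the total of the library. That choice used no difference between the groups, but a gene can pass through the 3 values of 1 group alone. Such a gene then differs in that direction by the filter itself.

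All animals were male C57BL/6J mice of 18 to 20 weeks. The sham group had the sham operation and distilled water, the LD group had TAC and the decoction, which is a Chinese herbal preparation, and the TAC group had TAC and distilled water. Each group holds 3 hearts, which the labels describe as biological repeats. The series has no sham group that received the decoction, so a difference between LD and sham joins the operation and the decoction, and these cannot be told apart without the TAC group. The series title names the MAP kinases and AKT signalling as its subject. The labels give no litter, cage, operation day, time of collection, dose or degree of constriction, so p-values measure the spread between these hearts only.

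Narrowing of the aorta makes the left ventricle pump against a higher pressure. Heart muscle cells then enlarge and re-express genes of the fetal heart, such as those for skeletal actin, the natriuretic peptides and the slow myosin heavy chain. Fibroblasts are activated alongside and lay down matrix proteins. In whole heart tissue, fewer cells of a type and less RNA per cell cannot be told apart.

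Several libraries stood apart from the others. LD3 lay at 43.1 and TAC3 at -49.5 on the first principal component, which held 28.5% of the variance, while the other 7 libraries lay between -8.85 and 17.9. The 20 most abundant genes held 28.0% of the FPKM in LD3 and 20.7% to 24.3% in the others. The depth recovered from the FPKM steps was 7.41 M, 18.0 M and 16.0 M fragments in LD1 to LD3 and 9.04 M, 14.5 M and 7.43 M in the sham libraries, and 3 fragments on a gene of 1 kb were worth 0.166 to 0.671 FPKM. In 4 libraries, sham 1, sham 3, TAC2 and TAC3, the recovered units were mostly even: 9.10% to 10.5% of the genes with 10 to 99 units had an odd number, against 44.5% to 55.9% in the other 5. The cause is not given in the sources used here, and those 4 totals were halved. All 3 LD libraries but only 1 of the 3 sham libraries are in the second class, so this class and the group are partly confounded. Values without LD3 or with a term for this class are given beside the genes and lists that lost the unadjusted threshold by either. The heart muscle gene Mybpc3 (cardiac myosin-binding protein C) lay between 650.4 and 1987 scaled FPKM in all 9 libraries, so the tissue's own muscle marker was present throughout.

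Values below are FPKM scaled by the median of ratios, listed in replicate order. Differences are LD minus sham on the scale of log2(scaled FPKM + 1), with their standard errors, from limma fitted to all 9 libraries with 1 mean per group. That scale understates the change of low genes.

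No gene passed a Benjamini-Hochberg adjusted p under 0.05 in LD against sham (0% of 10964). By unadjusted p under 0.05 there were 568 genes (5.18%), 295 higher in LD (2.69%) and 273 lower (2.49%). Where no gene differs, this threshold passes a share of about 0.05, and 5.18% lies near that share. The 3 LD values lay wholly above the 3 sham values in 743 genes (6.78%) and wholly below in 693 (6.32%), together 1436 genes (13.1%). All 6 operated hearts lay above all 3 sham hearts in 130 genes (1.19%) and below in 100 (0.912%). LD against TAC and TAC against sham likewise had no gene at the adjusted threshold (0% each), with 932 genes (8.5%) and 607 genes (5.54%) at the unadjusted one. Both contrasts against sham use the same sham libraries, so their values are given side by side without a measure of their likeness. The words higher and lower below describe measured values, not genes that passed the adjusted test.

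These counts depend on the fit. With the 6 LD and sham libraries alone, 10 genes passed in LD against sham (Cox20, Thbs4, Wisp2, Hist1h1e, Coro1b, Acta1, Comp, Fibin, Dbp and Cilp), and with array weights, which give less weight to libraries far from their group, 89 did. With a term for the even-unit libraries none did, and 282 genes remained at the unadjusted threshold. Scaling to equal FPKM sums moved the median gene from -0.01 to -0.18 and the share higher among genes at unadjusted p under 0.05 from 51.9% to 19.2%. Small differences of one sign therefore depend on the scaling. Of 101 tested genes described in the text, 79 had unadjusted p under 0.05 in LD against sham. Of these, 18 lost it without LD3 and 28 with the even-unit term, 46 kept it under both, and none changed sign under either.

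Several genes of stressed heart muscle and of activated fibroblasts stood among the highest in decoction-treated hearts over sham. Skeletal actin (Acta1), the matrix proteins Comp and Wisp2 and the fibroblast product Cilp lay 4.18-fold to 8.50-fold above sham by group means, and their values in TAC hearts given water overlapped those in LD. Genes on neither list, such as Dbp, Coro1b and Hist1h1e, also stood high. A stricter rule asked for genes in which all 6 operated hearts lay on the same side of all 3 sham hearts, with unadjusted p under 0.05 in both contrasts and a mean of at least 5 in 1 group. It held 43 genes higher (0.392%) and 15 lower (0.137%). Without LD3 it held 41 and 16, of which 29 and 9 were shared with the full set.

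Wisp2 (Ccn5 in GENCODE, chr2:163820861-163833146), a secreted matricellular protein, was at 35.5, 29.2 and 47.5 in LD, at 23.1, 33.9 and 44.6 in TAC and at 9.68, 8.51 and 8.67 in sham. Every operated heart lay above every sham heart, and the LD and TAC ranges overlapped. The difference from sham was 1.92 ± 0.27 (SE; adjusted p = 0.0502 by limma), and LD minus TAC was 0.16 with a 95% interval from -0.43 to 0.75. Wisp2 passed the adjusted threshold in 8 of 20 alternative fits.

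Comp (chr8:70373558-70382066), cartilage oligomeric matrix protein, was at 14.6, 14.3 and 35.2 in LD, at 13.4, 30.1 and 14.2 in TAC and at 1.35, 3.09 and 3.11 in sham. LD and TAC each spanned about the same range, well above sham. The difference from sham was 2.59 ± 0.39 (adjusted p = 0.0516 by limma) and fell to 2.19 without LD3, and LD minus TAC was 0.12 (95% interval -0.73 to 0.96).

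Its relative Thbs4 (chr13:92751590-92794818), thrombospondin 4, was at 11.9, 8.76 and 15.4 in LD, at 1.65, 7.83 and 17.2 in TAC and at 0.608, 1.98 and 0.364 in sham. Here 1 TAC heart overlapped the sham range while none of the LD hearts did. The difference from sham was 2.77 ± 0.54 (adjusted p = 0.29 by limma).

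Another 4 matrix or fibroblast genes that met the stricter rule had large differences. Cilp (chr9:65265180-65280605), a cartilage intermediate layer protein that fibroblasts secrete, was at 12.7, 12.4 and 28.8 in LD, at 9.00, 26.9 and 42.6 in TAC and at 3.90, 2.76 and 3.33 in sham, a difference of 2.03 ± 0.46 (1.66 without LD3). Fmod, fibromodulin, a proteoglycan that binds collagen fibrils, was at 3.79, 6.56 and 6.59 in LD and at 0.896, 1.37 and 1.04 in sham, a difference of 1.64 ± 0.34. In both genes every LD heart lay above every sham heart. Sfrp2, a secreted modulator of Wnt signalling, differed by 2.02 ± 0.56 but by 1.47 without LD3, and Fibin, a secreted protein, by 1.88 ± 0.41.

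Over the list of 22 tested activated fibroblast markers, the median difference from sham was 0.68, against -0.01 over all genes tested, and 20 of the 22 were above 0. At unadjusted p under 0.05, 8 were higher and 0 lower (2.69% and 2.49% of all genes were). Without LD3 the median was 0.50 with the same counts, and with the even-unit term it was 1.02. In TAC against sham the list's median was 1.26 with 14 of 22 higher, beside 2.65% of all genes.

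Across 38 tested genes for fibrillar collagens and other matrix proteins, the median was 0.31 in LD against sham, with 7 higher and 1 lower. In TAC against sham the median was 0.58, with 17 higher and 0 lower. At unadjusted p under 0.05, 2.69% of all genes were higher in LD and 2.65% in TAC. Without LD3 the list's median in LD against sham was 0.09. With the even-unit term it was 0.53, with 9 higher and 0 lower. LD minus TAC had a median of -0.39 over these 38 genes, and 35 were below 0, but only 5 reached unadjusted p under 0.05 (4.01% of all genes did so in that direction). For 23 of the 38, the LD mean lay between the sham and the TAC means. All 3 LD libraries but only 1 TAC library are outside the even-unit class, so LD against TAC is partly confounded with it too. The 24 resident fibroblast markers had medians of 0.32 in LD and 0.60 in TAC, led in LD by Igfbp6 (1.06), Pi16 (0.88), Cd248 (0.79) and Mfap5 (0.69), of which Mfap5 lost unadjusted p under 0.05 without LD3 (0.56).

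Single matrix genes of the LD hearts differed from sham in both directions. Bgn, the proteoglycan biglycan, was at 242, 249 and 306 in LD, at 267, 523 and 367 in TAC and at 147, 148 and 139.7 in sham, so both operated groups lay above sham and LD minus sham was 0.86 ± 0.26. Periostin (Postn), a matricellular marker of activated fibroblasts, ranged from 15.1 to 45.3 in LD and from 11 to 175 in TAC, overlapped sham in both, and differed by 1.14 ± 0.72. That difference was 0.75 without LD3 and 2.19 with the even-unit term (unadjusted p = 0.012). The fibrillar collagens differed by 0.16 ± 0.30 (Col1a1) and -0.20 ± 0.41 (Col3a1), and leaving out LD3 turned Col1a1 to -0.14. They were at 0.47 and 0.39 with the even-unit term. Mmp14, a membrane-bound collagenase, was lower in LD, at 9.96, 15.8 and 9.00 against 18.1, 17.5 and 21.6 in sham and 18.7, 25.7 and 24.3 in TAC. It lay below all 6 other hearts, by -0.71 ± 0.26 from sham and -0.95 ± 0.26 from TAC. The first was -0.56 without LD3 and -0.52 with the term, and neither reached unadjusted p under 0.05.

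**Figure D1:**
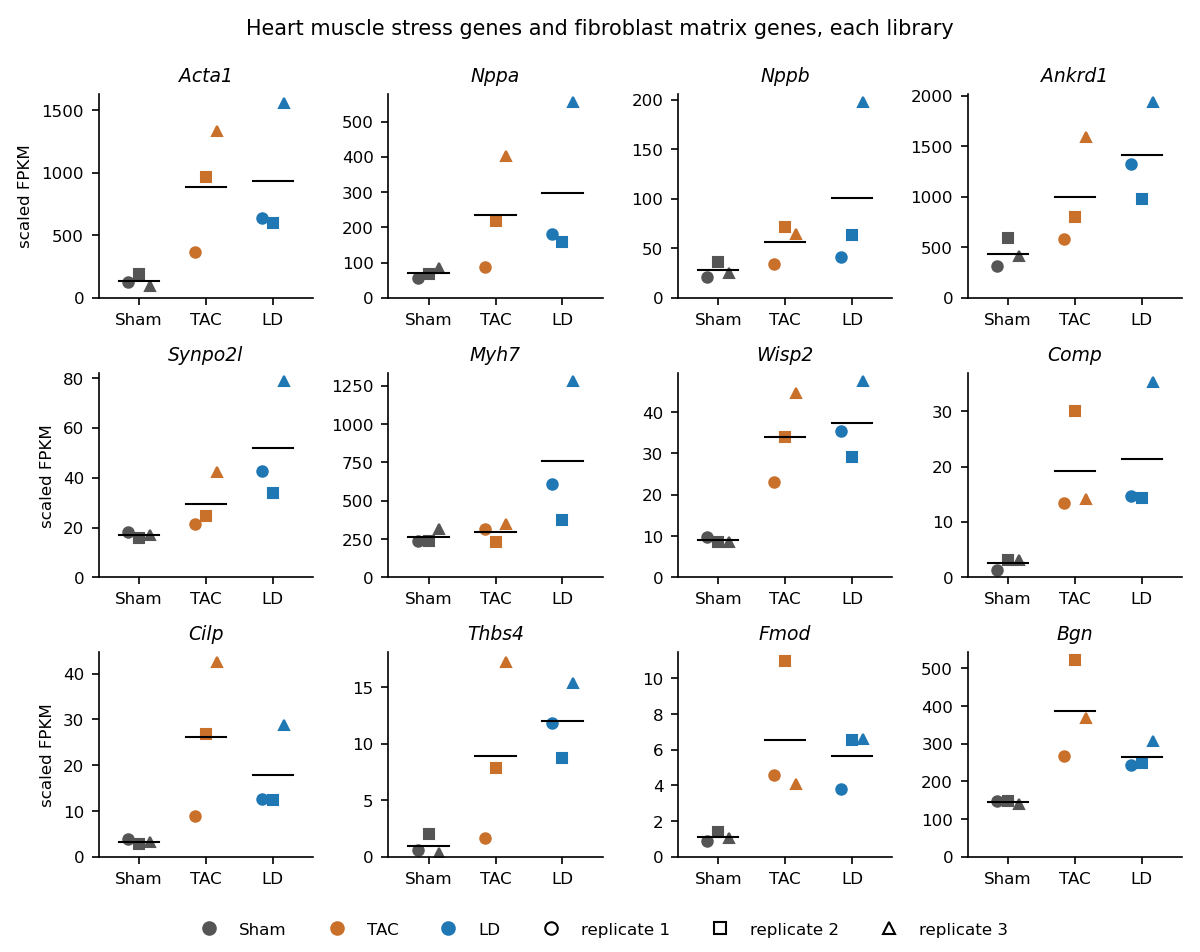
Scaled FPKM of stress genes of heart muscle and of matrix genes in each of the 9 hearts, 1 panel per gene, with hearts grouped as sham, TAC and LD and a horizontal line at each group mean. In the Wisp2 and Comp panels all LD and TAC points lie above all sham points.

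Most genes of the stressed heart muscle list had LD means above sham. Of its 22 tested members, 21 were above 0, and the median difference was 0.74. At unadjusted p under 0.05, 10 were higher and none was lower, beside 2.69% and 2.49% of all genes. The list's median over genes was 0.48, 0.37 and 1.39 in LD1 to LD3 relative to the sham mean, and 0.27, 0.48 and 0.41 in the TAC hearts. In TAC against sham 6 of the 22 were higher (2.65% of all genes were), with a median of 0.19 over the group differences. LD3 thus stood far above the other operated hearts. Without LD3 the median was 0.42, 18 members were above 0 and 7 were higher at that threshold (1.70% of all genes were).

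Acta1 (chr8:123891769-123894751), skeletal muscle actin of the fetal heart, was at 640.0, 597 and 1560.3 in LD, at 363, 968 and 1333 in TAC and at 123, 191 and 95.4 in sham. The lowest operated heart was above the highest sham heart. The difference was 2.68 ± 0.47 (adjusted p = 0.171 by limma), 2.23 without LD3, and LD minus TAC was 0.12 (95% interval -0.89 to 1.13).

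The natriuretic peptides, hormones of the strained heart, were above sham in every LD heart. Nppa was at 182, 159.8 and 555 in LD and at 55.4, 67.4 and 85.2 in sham, a difference of 1.87 ± 0.51 (1.31 without LD3). Nppb differed by 1.54 ± 0.47, and by 0.90 without LD3, in which it was at 198 against 41.0 and 64.0 in the other LD hearts. Of the exon bases of Nppa, 61.5% are shared with an antisense gene, and without strand the 2 cannot be told apart.

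Ankrd1, a stretch-responsive protein of the sarcomere and nucleus, was at 1328, 981 and 1940.3 in LD, at 586, 804 and 1593 in TAC and at 312, 592 and 411 in sham. LD lay above all sham hearts, and 1 TAC heart did not. The difference was 1.68 ± 0.38. Synpo2l, a Z-disc protein, was at 42.6, 34.0 and 78.9 in LD, at 21.2, 24.6 and 42.3 in TAC and at 18.3, 15.8 and 16.8 in sham, with LD minus sham 1.47 ± 0.32 and LD minus TAC 0.77 ± 0.32 (unadjusted p = 0.0324, adjusted 0.58 by limma). Xirp2, an actin-binding protein of the intercalated disc, differed from sham by 1.06 in LD and by 1.18 in TAC, and the first was 0.68 without LD3, where it lost unadjusted p under 0.05.

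The slow myosin heavy chain Myh7 (chr14:54970684-54994626) had a different order of groups. It was at 612, 377 and 1282 in LD, at 313, 233 and 346 in TAC and at 238, 236 and 316 in sham, so every LD heart lay above all 6 others while TAC and sham overlapped. LD minus sham was 1.35 ± 0.37 and LD minus TAC 1.18 ± 0.37 (unadjusted p = 0.00627, adjusted 0.542 by limma); without LD3 the difference from sham was 0.88. The fast chain Myh6, predominant in the adult mouse heart, was at 3482, 3261 and 6384 in LD and at 3649.9, 3836 and 3322 in sham, a difference of 0.21 ± 0.29 that turned to -0.09 without LD3. Other sarcomere genes above both groups by mean were Myom2 (0.81 from sham, 0.93 from TAC), Csrp3 (0.81 and 0.73) and Mybpc3 (0.65 and 0.71). These 3 did not keep unadjusted p under 0.05 against sham without LD3 (0.64, 0.54 and 0.43) or with the even-unit term (0.54, 0.67 and 0.44). Over the 24 sarcomere and Z-disc genes the median was 0.26, and 0.09 without LD3. The calcium pump Atp2a2 differed from sham by -0.22 ± 0.25.

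**Figure D2:**
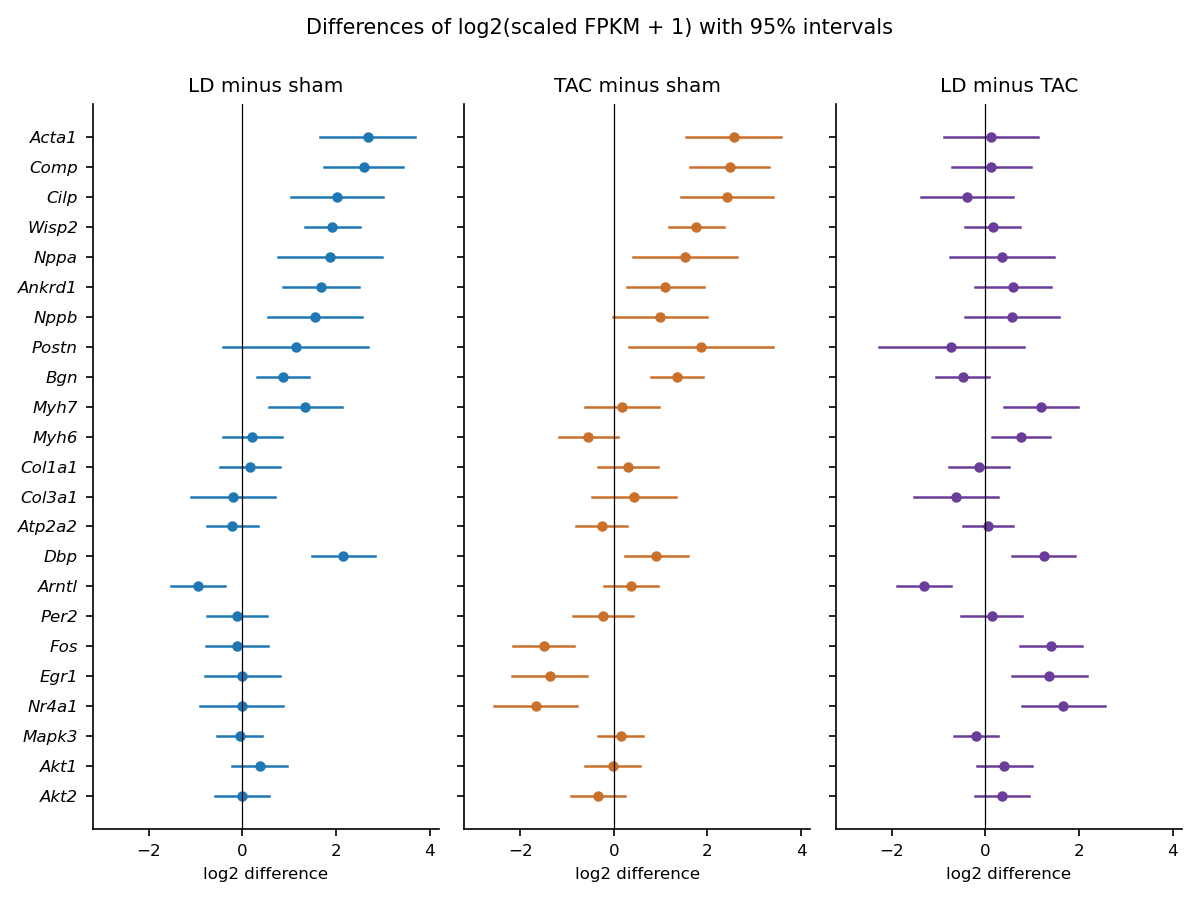
Differences of LD minus sham, TAC minus sham and LD minus TAC on the scale of log2(scaled FPKM + 1), with 95% intervals, for 23 genes of a fixed set. Wisp2, Comp and Acta1 show both contrasts against sham above 1.7 and an LD minus TAC interval that spans 0, while the LD minus TAC intervals of Fos, Egr1 and Nr4a1 lie above 0 and their LD minus sham intervals span 0.

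Genes lower in both operated groups were fewer. Phkg1, the catalytic subunit of muscle phosphorylase kinase, was at 4.92, 4.31 and 0.553 in LD, at 10.1, 4.22 and 2.99 in TAC and at 11.1, 11.1 and 15.4 in sham, a difference of -1.87 ± 0.48 (-1.26 without LD3). Nle1, a ribosome biogenesis factor, differed by -1.12 ± 0.29. Rgs2, a brake on Gq-coupled receptor signalling, was at 6.33, 5.15 and 4.04 in LD, at 4.15, 5.03 and 1.64 in TAC and at 9.20, 9.88 and 8.77 in sham, a difference of -0.75 ± 0.31. In all 3 genes the operated hearts lay below the sham hearts. The next by size were Rrnad1 (-0.89), Ccdc117 (-0.82), Rita1 (-0.81), Kbtbd2 (-0.76) and the transcription factor Irx2 (-0.74). Unadjusted p under 0.05 was lost without LD3 by Rgs2 (-0.62) and Rita1 (-0.70), and with the even-unit term by Rita1 (-0.54), Ccdc117 (-0.69) and Irx2 (-0.50).

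The largest negative difference was that of Cox20, an assembly factor of cytochrome oxidase, at -3.66 ± 0.77. It was at 0.665, 0.314 and 0.862 in LD and at 23, 18.8 and 16.4 in sham, but at 0.325, 23.8 and 0.913 in TAC, where 1 heart matched sham and the others matched LD. Cox20 passed the filter through its sham values alone, so LD below sham followed from the filter. Of its exon bases, 91.1% are shared with Hnrnpu on the other strand, so the split of reads between these genes is uncertain. Other genes of smallest p in this direction were Hist1h3d (-1.76), Misp (-1.67), Tagln3 (-1.82) and Tnfrsf25 (-1.51), a death-domain receptor. The first 3 of these had sham means under 5 FPKM. The filter can admit genes this low through their sham values alone, so their direction is no separate result. A further histone gene, Hist1h1e, was at 0 in all sham hearts and at 4.01, 2.84 and 4.91 in LD, at least 7.89-fold higher if sham is set to 3 fragments per library. Hist1h1e passed the filter through its LD values alone, so LD above sham followed from the filter. The TAC hearts were at 9.09, 0.170 and 0 for this gene, and with the even-unit term its difference from sham fell from 2.28 to 1.2 and lost unadjusted p under 0.05. Most such histone mRNAs lack a poly(A) tail, and these libraries were made by poly-T selection. Of the exon bases of Hist1h1e, 25.7% are shared with other genes.

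A second rule asked for genes in which all 3 LD hearts lay outside all 6 sham and TAC hearts, with unadjusted p under 0.05 against both groups and a mean of at least 5 in 1 group. It held 39 genes higher (0.356%) and 39 lower (0.356%), 1 of them a predicted gene. Without LD3 it held 26 and 25, of which 16 and 13 were shared. In all, 177 genes (1.61%) had LD above and 187 (1.71%) had LD below every other heart, together 364 genes (3.32%).

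The circadian clock is a loop of transcription factors. Arntl (Bmal1) with Clock or Npas2 binds E-box sequences (CACGTG) and activates the Per, Cry, Nr1d1 and Dbp genes. The Per and Cry proteins inhibit Arntl, the repressor Nr1d1 shuts down Arntl and Nfil3 through RORE sequences (searched as NTAGGTCA), and Dbp, Tef and Hlf activate genes through D-boxes (searched as TTANGTAA), which Nfil3 blocks. Arntl and Dbp mRNA therefore peak at opposite times of day. Below are the 250 bases before the transcription start of Per1, an E-box gene, and of Nr1d1 and Arntl, which stood in opposite directions in the LD hearts, from RefSeq on GRCm38.p6, each 5′ to 3′ on the strand of the gene with any match in capitals. RefSeq lists 2 starts for Per1 and for Arntl, and the first is shown. The second windows (chr11:69099902-69100151 and chr7:113207261-113207510) held none of these letters.
Per1 (chr11:69098699-69098948, plus strand): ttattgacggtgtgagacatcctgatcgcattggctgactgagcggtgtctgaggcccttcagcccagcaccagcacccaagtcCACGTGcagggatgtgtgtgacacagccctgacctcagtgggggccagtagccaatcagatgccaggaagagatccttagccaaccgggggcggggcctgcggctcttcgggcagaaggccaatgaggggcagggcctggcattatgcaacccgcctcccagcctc
Nr1d1 (chr11:98775378-98775627, minus strand): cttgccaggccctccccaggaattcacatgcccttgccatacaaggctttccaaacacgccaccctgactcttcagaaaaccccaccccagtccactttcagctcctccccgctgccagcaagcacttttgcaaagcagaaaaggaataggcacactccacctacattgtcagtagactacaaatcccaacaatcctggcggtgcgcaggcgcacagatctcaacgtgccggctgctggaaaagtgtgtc
Arntl (chr7:113207215-113207464, plus strand): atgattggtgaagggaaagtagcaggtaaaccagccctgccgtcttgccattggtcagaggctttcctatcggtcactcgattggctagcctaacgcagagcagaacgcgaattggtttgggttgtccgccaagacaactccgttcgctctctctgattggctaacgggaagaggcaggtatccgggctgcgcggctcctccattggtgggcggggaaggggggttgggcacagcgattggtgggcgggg

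Of the 21 clock genes listed, 17 had such a window, and both strands were searched. The E-box letters, which read the same on both strands, occurred in 5 (Per1, Cry1, Tef, Ciart and Bhlhe41), the D-box in 1 (Per3) and the RORE in 1 (Nfil3), while 10 had none of the 3 in this window. Among all 32851 windows of this length the shares were 6.02%, 2.06% and 2.22%. A match describes letters only.

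Dbp (chr7:45705088-45710203) had the second smallest p in LD against sham, after Wisp2. It was at 26.6, 12.4 and 19.0 in LD, at 6.96, 8.55 and 6.24 in TAC and at 2.44, 2.92 and 5.24 in sham, so the 3 groups did not overlap and LD was highest. LD minus sham was 2.15 ± 0.31 (adjusted p = 0.0502 by limma), LD minus TAC 1.25 ± 0.31 (adjusted p = 0.442) and TAC minus sham 0.90. Dbp met both rules above, passed the adjusted threshold against sham in 9 of 20 alternative fits, and differed by 2.14 without LD3. Of its exon bases, 18.0% are shared with Sphk2 on the other strand.

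The repressor Nr1d1 (chr11:98767932-98775333) was at 11.2, 18.8 and 17.6 in LD, at 8.83, 7.41 and 3.72 in TAC and at 4.45, 6.34 and 6.08 in sham. Arntl (chr7:113207465-113314126) was at 3.47, 2.61 and 2.04 in LD, at 10.5, 6.43 and 7.84 in TAC and at 6.09, 4.97 and 7.19 in sham. For both genes every LD heart lay outside all 6 others, Nr1d1 above and Arntl below. Nr1d1 differed by 1.33 ± 0.31 from sham and by 1.17 ± 0.31 from TAC, and Arntl by -0.94 ± 0.27 and -1.31 ± 0.27 (adjusted p = 0.406, 0.442, 0.724 and 0.315 by limma).

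Further clock genes differed less. Cry2 was at 9.07, 8.68 and 7.39 in LD and at 2.56, 7.28 and 5.41 in sham, a difference of 0.70 ± 0.30 that was 0.36 without sham 1. Per1 was at 21.7, 14.1 and 19.1 in LD, overlapped sham at 9.97, 13.1 and 14.2, and lay above TAC at 12.6, 6.64 and 7.14, with LD minus sham 0.52 and LD minus TAC 1.01. Nfil3 was lower in LD, by -0.60 ± 0.26, with no overlap with sham. With the even-unit term Cry2, Per1 and Nfil3 were at 0.47, 0.21 and -0.57, and none reached unadjusted p under 0.05. The other positive-limb gene Npas2 (-0.49), the repressor Cry1 (-0.67) and the D-box factor Hlf (-0.54) also had LD below every sham heart, while Tef (0.47) and Per2 (-0.11) overlapped sham.

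Over the 20 tested clock genes, 3 were higher and 2 lower at unadjusted p under 0.05 (2.69% and 2.49% of all genes were). Of the 20, 3 lay wholly above sham and 5 wholly below (6.78% and 6.32% of all genes did), and the median was -0.09. The collection time of the hearts is not given in the labels, and its part in these values was not tested.

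**Figure D3:**
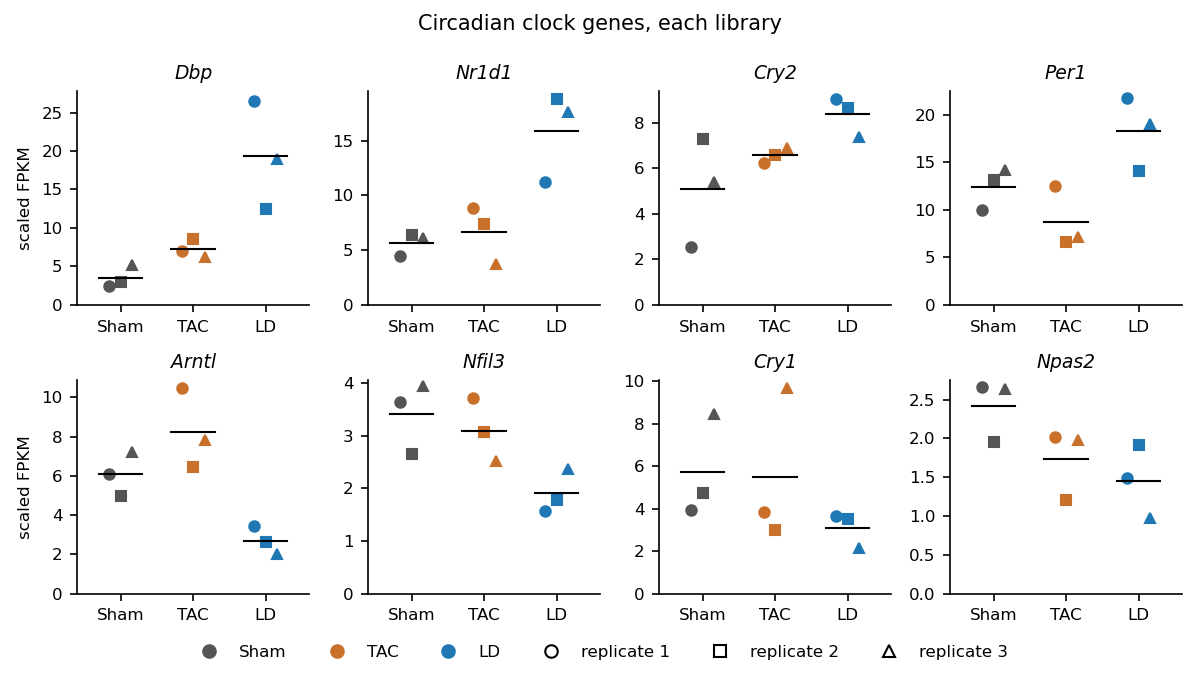
Scaled FPKM of 8 circadian clock genes in each of the 9 hearts, with a horizontal line at each group mean. LD points lie above all others for Dbp, Nr1d1 and Cry2 and below all others for Arntl and Nfil3.

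Several secreted and enzyme genes shared the pattern of LD above all other hearts. Serpina3n, an acute-phase inhibitor of serine proteases, was at 14.6, 18.4 and 17.9 in LD, at 13.3, 12.0 and 8.35 in TAC and at 4.39, 6.16 and 6.96 in sham, stepwise by group without overlap. It differed from sham by 1.40 ± 0.26 (adjusted p = 0.212 by limma) and from TAC by 0.57 ± 0.26. Pglyrp1, a secreted peptidoglycan-binding protein of neutrophils, was at 4.79, 1.71 and 3.19 in LD and at most 0.380 in any other heart, with LD minus sham 1.70 ± 0.32. Pglyrp1 passed the filter through its LD values alone, so LD above sham followed from the filter. Lcn2, an iron-binding protein of the acute phase, was at 6.12, 6.05 and 3.99 in LD, at 1.07, 2.33 and 0.236 in TAC and at 3.24, 2.53 and 2.28 in sham, a difference of 0.78 that lost unadjusted p under 0.05 with the even-unit term. Of 23 lymphocyte and neutrophil markers 5 were tested, with a median of 0.88 against sham and per-library medians of 0.99, 1.67 and 0.06 in LD1 to LD3. Without the filter, which can admit a low gene through LD alone, the list's median was 0.10. The part of these cell types in the Pglyrp1 and Lcn2 values was not tested.

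Rasd1, a small GTPase induced by glucocorticoids, was at 7.21, 3.21 and 8.05 in LD, at 0.996, 1.07 and 0 in TAC and at 1.40, 2.05 and 1.04 in sham, a difference of 1.46 ± 0.37. Cyp26b1, which degrades retinoic acid, was at 9.74, 6.00 and 5.66 in LD, at 2.30, 2.78 and 5.07 in TAC and at 1.17, 2.94 and 2.32 in sham, a difference of 1.38 ± 0.33. In both, the lowest LD heart was above the highest of the others. Asl, argininosuccinate lyase of arginine synthesis, differed by 1.17 ± 0.34 from sham (0.77 without LD3) and 1.43 ± 0.34 from TAC. Aqp8, a water channel, differed by 1.25 ± 0.47, but by 0.70 without LD3, where it was at 14.0, and by 1.16 with the even-unit term, and lost unadjusted p under 0.05 in both.

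Myh11 and Tagln, genes of smooth muscle, lay above all other hearts in LD. Myh11, smooth muscle myosin, was at 41.6, 28.5 and 36.3 in LD, at 24.0, 16.8 and 16.9 in TAC and at 16.1, 22.4 and 17.6 in sham, a difference of 0.88 ± 0.25. Tagln, the actin-binding protein SM22, was at 194, 145 and 160.5 in LD against 82.5, 107 and 85.9 in sham, a difference of 0.85 ± 0.31, and 67.9% of its exon bases are shared with genes on the other strand. With the even-unit term these differences were 0.59 and 0.50, and neither reached unadjusted p under 0.05. Over the 17 smooth muscle and pericyte markers the median was 0.22, with 2 higher and 0 lower (2.69% and 2.49% of all genes were). The per-library medians were 0.22, 0.32 and 0.13 in LD and -0.09 to 0.05 in sham. In TAC1 to TAC3 they were 0.09, 0.39 and -0.05, so TAC2 lay above every LD heart.

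Lower in LD than in every other heart were Sox7 and Klf4, transcription factors known for roles in vascular endothelium. Sox7 was at 6.31, 6.83 and 5.72 in LD, at 13.7, 15.2 and 19.2 in TAC and at 14.3, 12.6 and 12.3 in sham, a tight group well below the rest. It differed by -0.95 ± 0.23 from sham and by -1.22 ± 0.23 from TAC (unadjusted p = 0.000124, adjusted 0.261 by limma). Klf4 was at 44.5, 26.2 and 33.0 in LD, at 47.7, 54.9 and 62.1 in TAC and at 66.3, 66.4 and 77.2 in sham, a difference of -1.02 ± 0.24. Among the 21 endothelial markers only Eng (-0.55), a co-receptor for TGF-beta ligands, was lower at unadjusted p under 0.05 (2.49% of all genes were). Eng lost that threshold without LD3 (-0.46) and with the even-unit term (-0.54). The median over the markers was 0.10, or -0.12 after scaling to equal sums. Sox17 (-0.42) and Sox18 (-0.34), the endothelial relatives of Sox7, did not reach that threshold.

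Several other lower genes had their lowest values in LD3. Ly96, the MD-2 partner of the receptor TLR4, was at 3.03, 2.67 and 0 in LD, at 12.2, 5.50 and 13.4 in TAC and at 4.25, 6.93 and 9.44 in sham, a difference of -1.63 ± 0.49 that was -0.98 without LD3. Slc35e2 (-1.24), Zmym1 (-1.18), Banp (-1.14), a DNA-binding protein, and Klhl33 (-1.14, and -0.74 without LD3) followed. Each of these genes was lowest in LD3, as was Phkg1. Pdk4 and Ube2c were also below all other hearts in LD. Pdk4, which restrains glucose oxidation, was at 300.4, 279.9 and 355 in LD and 422, 537 and 428 in sham (-0.56 ± 0.26), and Ube2c, a mitotic ubiquitin enzyme, differed by -0.83 ± 0.26. Both lost unadjusted p under 0.05 with the even-unit term (-0.44 and -0.67), and were at -0.66 and -0.90 without LD3. In the lists that hold them, 22 of 36 genes of fatty acid use and 7 of 10 mitotic genes had differences above 0. Without LD3 these counts were 15 and 8, and over all genes 5398 of 10964 were above 0 with LD3 kept. Of exon bases, 41.0% in Zmym1 and 22.8% in Ube2c are shared with a gene on the other strand.

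**Figure D4:**
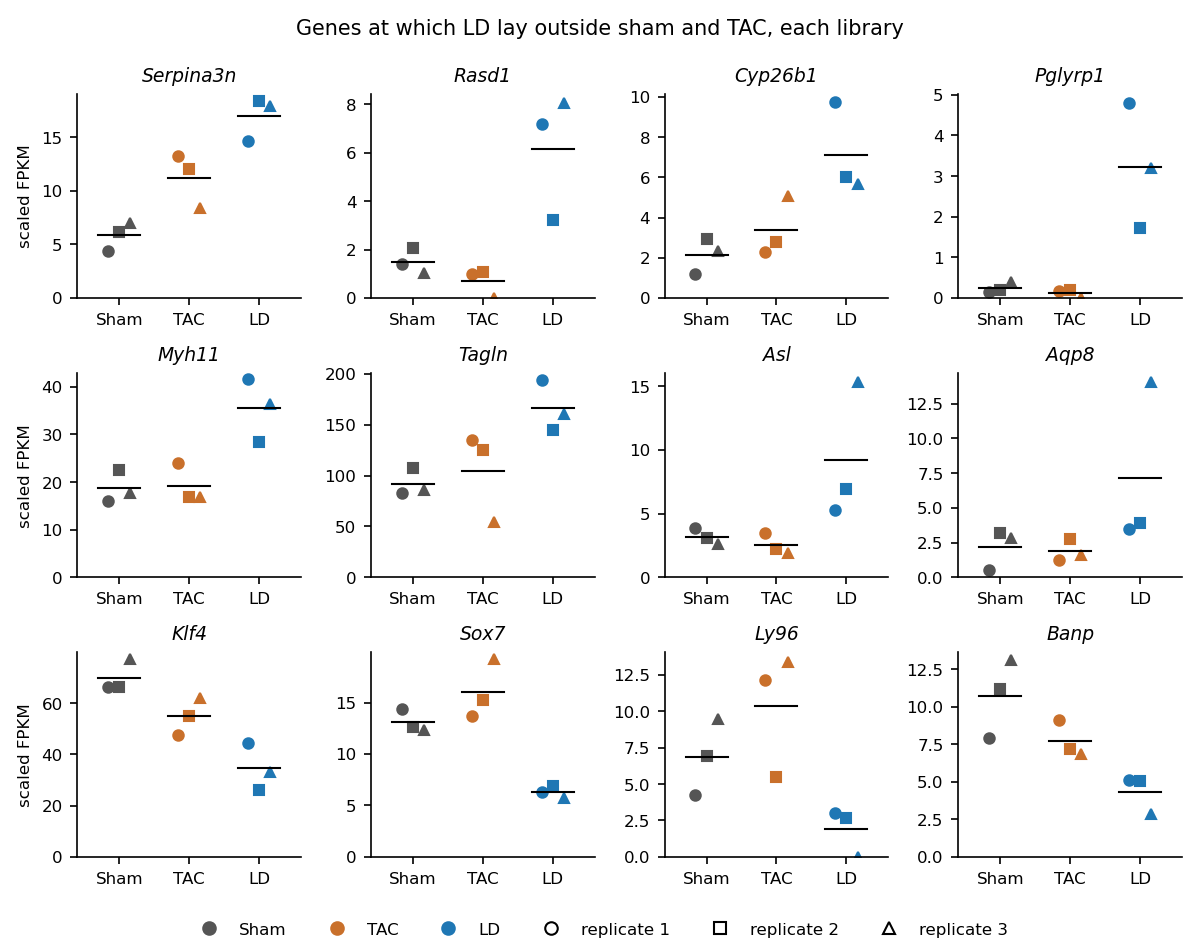
Scaled FPKM of 12 genes in which the 3 LD hearts lay outside the 6 sham and TAC hearts, with a horizontal line at each group mean. Serpina3n, Rasd1, Cyp26b1, Pglyrp1, Myh11, Tagln, Asl and Aqp8 have LD on top, and Klf4, Sox7, Ly96 and Banp have LD at the bottom.

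In some immediate early genes, which are switched on within minutes of a stimulus or of tissue handling, LD overlapped sham while TAC lay lower. Fos was at 7.42, 4.27 and 8.41 in LD, at 9.08, 6.70 and 5.75 in sham and at 1.10, 2.41 and 2.22 in TAC, so LD and sham overlapped and TAC lay below both. LD minus sham was -0.11 ± 0.31 and LD minus TAC 1.40 ± 0.31 (unadjusted p = 0.000491, adjusted 0.347 by limma). Egr1 and Nr4a1 had LD minus sham of -0.00 and -0.01 and LD minus TAC of 1.37 and 1.66. The list as a whole lay further from sham than these 3, with a median LD minus sham of -0.21 and 19 of 25 genes below 0. Its per-library medians were 0.07, -0.54 and -0.16 in LD1 to LD3 and -0.66, -0.19 and -0.55 in TAC1 to TAC3, so LD2 lay within the TAC range. Of the 25 tested immediate early genes, 12 were lower in TAC than in sham at unadjusted p under 0.05 (2.89% of all genes were). In LD against sham 2 were lower (Klf4 and Atf3) and 1 was higher (Cyr61), beside 2.49% and 2.69% of all genes. In LD against TAC 8 were higher (4.49% of all genes were). Atf3 and Cyr61 lost the threshold against sham without LD3 (-0.73 and 0.52) and with the even-unit term (-0.71 and 0.65). The 95% interval of LD minus sham for Fos ran from -0.77 to 0.55.

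Meox1, Timp1 and Aspn, genes of fibroblasts, lay nearer to sham than to TAC in LD. Meox1, a transcription factor of activated fibroblasts, was at 8.57, 10.7 and 16.4 in LD, at 14.2, 12.3 and 7.15 in sham and at 17.1, 28.1 and 39.8 in TAC. LD minus TAC was -1.15 ± 0.34 (unadjusted p = 0.005, adjusted 0.521 by limma). Timp1, an inhibitor of matrix proteases, and Aspn, a small proteoglycan, had LD minus TAC of -1.03 and -1.27 and LD minus sham of 0.44 and -0.27. Their LD minus TAC with the even-unit term was -0.40 and -0.75 and their LD minus sham 1.07 and 0.25, so Timp1 then lay nearer to TAC. These 3 were named after their values were seen.

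The MAP kinase and AKT genes named by the study's title showed small differences. Mapk3 (ERK1) differed from sham by -0.06 ± 0.22, Akt1 by 0.37 ± 0.27 (0.10 without LD3) and Akt2 by -0.00 ± 0.27. Mapk14, the p38 alpha kinase, was listed at 0.192 to 0.526 in the 9 libraries and was under the filter. Of 48 MAP kinases and phosphatases tested, 0 were higher and 0 lower at unadjusted p under 0.05, and the median was -0.09. Of 43 genes of the PI3K, AKT and mTOR pathway 1 was higher and 0 lower, beside 2.69% and 2.49% of all genes. This was Pik3ip1, an inhibitor of PI3K, at 31.4, 31.1 and 32.0 in LD, 35.0, 39.6 and 26.5 in TAC and 14.1, 24.1 and 22.7 in sham. It differed from sham by 0.64 ± 0.25, and by 0.47 with the even-unit term, where it lost unadjusted p under 0.05. These mRNA levels do not measure phosphorylation, the step at which these kinases are switched on.

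Energy genes had small median differences from sham in LD. The medians were 0.15 over 76 oxidative phosphorylation genes, of which 65 were above 0, and 0.09 over 36 genes of fatty acid use, but 0.04 and -0.08 without LD3 and -0.06 and -0.12 after scaling to equal sums. In TAC against sham the medians were -0.20 and -0.26, with per-library medians of -0.02, 0.03 and -0.48 and of -0.14, -0.11 and -0.50 in TAC1 to TAC3, so TAC3 lay lowest in both. The 78 cytosolic ribosomal protein genes had a median of 0.37 with 25 wholly above sham (6.78% of all genes were), and 0.31 without LD3. Of the 78, 1 was higher at unadjusted p under 0.05 (2.69% of all genes were). This was Rpl34 (0.64), which lost it without LD3 and with the even-unit term. The median of these genes was 0.05 in LD1 and 0.52 in each of LD2 and LD3. Among 23 ion channel and junction genes, 3 potassium channels were lower at that threshold (2.49% of all genes were), Kcnd2 (-0.81), Kcnj3 (-0.71) and Kcnj2 (-0.64), and the median was -0.19. None of the 3 kept it without LD3 (-0.59, -0.46 and -0.53), and with the even-unit term Kcnd2 did (-0.84) and Kcnj3 and Kcnj2 did not (-0.59 and -0.33). Of the exon bases of Kcnj3, 31.1% are shared with a gene on the other strand.

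Chaperones and inflammatory genes were mixed. Of 25 heat shock genes, 4 were lower at unadjusted p under 0.05, beside 2.49% of all genes (Chordc1 at -1.08, Hsph1 at -0.91, Dnaja1 at -0.81 and Dnajb1 at -0.69) and 2 were higher (Hspb7, a chaperone of heart muscle, at 0.76 and Hspa2 at 0.70). Only Chordc1 of the 4 stayed past the threshold with the even-unit term (-0.74), and Hsph1, Dnaja1 and Dnajb1 were at -0.60, -0.43 and -0.41. Hspb7 lost it without LD3 (0.62), and the list's median went from 0.08 to -0.25 without LD3. Chordc1 was at 18.5, 14.1 and 12.9 in LD and at 41.5, 28.1 and 30.5 in sham, without overlap. Among 17 chemokines and cytokines, Ccl2 (-1.42) and Ccl7 (-1.35), which attract monocytes, were lower and Cxcl14 (1.15, and 0.76 without LD3) was higher. Ccl2 lost the threshold with the even-unit term (-1.14). None of the 23 macrophage markers reached unadjusted p under 0.05. Of 34 interferon response genes 0 were higher and 2 lower, Ifi44 (-1.47) and Trim30a (-0.62), with a median of -0.14. Beside each count in this paragraph, 2.69% of all genes were higher and 2.49% lower at that threshold. Trim30a lost the threshold without LD3 (-0.50) and with the term (-0.53).

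Markers of tissue other than ventricular muscle varied between hearts. The 11 tested atrial markers had a median of 1.0 in LD3, against -0.14 to 0.14 in the other 8 libraries. In LD3 the atrial light chain genes Myl7 and Myl4 were at 49.2 and 31.4, against at most 7.24 and 6.95 elsewhere. The part of atrial tissue in LD3 in the differences of Nppa, Nppb, Myh7 and Myh6 was not tested, and their values without LD3 are given above. Erythroid markers, 7 tested, had per-library medians of -1.39 to 1.11 in sham, -0.27 to 0.63 in LD and up to 2.85 in TAC2. Of 16 lung, thymus and liver markers 2 were tested, and 10 were at 0 in all libraries.

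**Figure D5:**
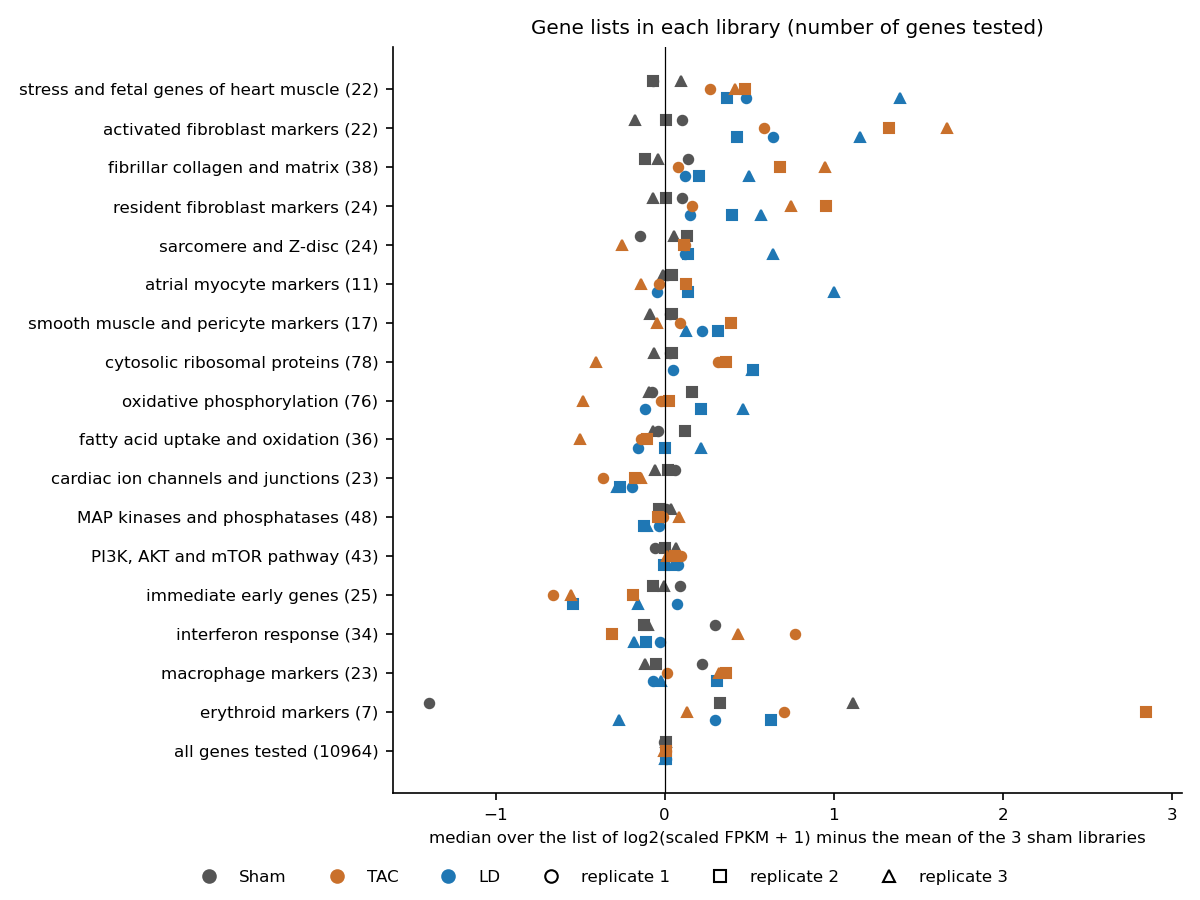
Median over the tested members of each of 18 gene lists, in each of the 9 hearts, on the scale of log2(scaled FPKM + 1) relative to the sham mean. Activated fibroblast markers lie at 0.43 to 1.16 in LD and at 0.59 to 1.67 in TAC, and atrial markers stand out in LD3 at 1.0.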

How the data were processed

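RNA of 9 whole hearts, 3 per group, was sequenced after poly-T selection with random hexamer priming, per the labels' protocols, which name no step that marks the strand. Per the submitters' processing notes, the tools were CASAVA 1.8, fastp 0.20.0, HISAT2 2.1.0, Cufflinks 2.2.1, HTSeq 0.7.2 and DESeq, on GRCm38, and the tool behind each value is not given in the sources used here. FPKM values were deposited by the authors for 21989 gene symbols, 9 columns in all, with 5727 symbols at 0 in every library.

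The members and gene lists were chosen with earlier results of these data known, so no list is independent support. FPKM were scaled by the median of ratios and transformed as log2(value + 1). limma 3.58.1 in R 4.3.3 (eBayes with trend, two-sided) was fitted to 10964 genes and all 9 libraries, with 6 residual degrees of freedom and Benjamini-Hochberg adjustment over these genes. The code was tested on simulated data.

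After scaling for relative depth, the FPKM of a gene across the libraries were whole multiples of 1 unit for all 16262 symbols above 0 (tolerance 0.001). The depths were taken from these multiples. A symbol above 0 in only 1 library fits by construction. Limits on 3 fragments cover counting error only.

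Named were the 8 genes of smallest p per direction, the 8 of largest difference per direction in each of the 2 rules, a fixed set (1 gene of it is not reported here), and up to 4 of smallest p per list described. Nfil3, Per1, Cry1, Npas2, Tef, Hlf, Xirp2, Csrp3, Dnaja1, Dnajb1, Myl7, Meox1, Timp1 and Aspn were named after their values were seen. Predicted genes were counted, not named. Coordinates and exon overlaps are from GENCODE on GRCm38, and promoters from RefSeq. Alternatives in pseudocount, filter, scaling, libraries, weights, variance and count model are given at the end. A count test on the recovered units was run as voom.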

Additional observations from a re-analysis of the deposited data

How the results depend on the processing

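The alternatives changed the pseudocount to 0.1, the filter (none, or an FPKM of 5), the scaling (as deposited, or equal sums), the libraries fitted, the weights, the variance model and the count model, and left out each library in turn. A term for the 4 even-unit libraries was added after seeing the data. At adjusted p under 0.05, LD against sham had 3 genes with the FPKM filter of 5, 10 with the 6 LD and sham libraries only, 89 with array weights, 2 with robust empirical Bayes and 3 with voom on recovered fragments, and 0 under the other settings that kept all libraries. Leaving out 1 library gave 0 to 8 genes (8 without TAC1). TAC against sham had 8 with array weights and 0 to 9 when 1 library was left out, and LD against TAC had 0 throughout. At unadjusted p under 0.05 the counts for LD against sham, LD against TAC and TAC against sham were 355, 610 and 353 with the FPKM filter of 5, where fewer genes were tested, and 1969, 1514 and 921 with array weights. With the even-unit term they were 282 for LD against sham and 351 for LD against TAC. Leaving out 1 library gave 338 to 941, 533 to 1661 and 363 to 1133, where LD3 and LD1, LD3 and TAC1, and sham 3 and TAC1 set the ends.

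Of the differences from sham named, those of 12 genes near 0 changed sign. With equal sums Col1a1, Myh6 and Meox1 were at -0.0367, -0.000781 and -0.12, and Meox1 was at -0.0325 as deposited. With array weights Col1a1, Myh6, Mapk3 and Meox1 were at -0.10, -0.0821, 0.12 and -0.10. Akt2 was at 0.00137 with no filter and 0.000393 with voom. With the even-unit term Col3a1, Fos, Egr1, Nr4a1 and Aspn were at 0.39, 0.14, 0.12, 0.11 and 0.25. Leaving out 1 library gave -0.14 to 0.38 for Col1a1, -0.45 to 0.11 for Col3a1, -0.0942 to 0.40 for Myh6, -0.34 to 0.0799 for Per2, -0.28 to 0.15 for Fos, -0.33 to 0.28 for Egr1, -0.40 to 0.52 for Nr4a1, -0.17 to 0.00264 for Mapk3, -0.14 to 0.15 for Akt2, -0.18 to 0.27 for Meox1 and -0.0449 to 0.84 for Timp1. The cause was not tested.

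Replicate numbers pair no animals in the labels, and deviations of same-numbered libraries correlated at -0.253 to 0.159. With a replicate block the unadjusted counts were 479, 740 and 526 and the adjusted counts were 0. Depth limits low genes: 3 fragments at 1 kb were worth up to 0.671 FPKM.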
